A study of Mus musculus with 84 samples.

Results

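The cytosolic ribosomal protein genes are the 80 gene rows named Rpl or Rps with a number and at most 1 further letter, plus Rplp0, Rplp1, Rplp2 and Rpsa, in both deposited expression tables. They were taken by name alone, out of 50692 gene rows. The name pattern met 82 rows, and Rps4l and Rpl6l were left out because RefSeq lists both as pseudogenes. The 80 genes comprise 30 of the small subunit, 43 of the large subunit, 3 of the stalk and 4 paralogs, Rpl3l, Rpl10l, Rpl39l and Rps27l. RefSeq places all 80 of them, and 14 lie on mouse chromosome 7. A further 6 genes, among them Fau, Rack1, Rpl22l1, Rpl36al and Rpl7l1, encode ribosomal or closely related proteins under other names and were kept apart as a list.

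The series measured RNA in mouse cells in 4 experiments, each with 2 libraries per group, and chromatin in single libraries. Its question is how YTHDF2 and YTHDF3, proteins that read the m6A mark on mRNA, take part in reprogramming fibroblasts to pluripotency. In the time course, mouse embryonic fibroblasts (MEFs) carried pMXs retroviruses for Oct4, Sox2 and Klf4 plus a pSuper-puro retrovirus for a hairpin against Ythdf2 (shYthdf2), Ythdf3 (shYthdf3) or luciferase (shLuc, the control), and were sampled on days 1, 3, 5 and 7 in iCD1 medium. In the mRNA lifetime experiment, day 1 cells with the same viruses and the same 3 hairpins received actinomycin D or DMSO for 4 h or 8 h. In the cell line experiment, embryonic stem cells (ES, from CBA/CaJ X C57BL/6J mice), induced pluripotent stem cells (iPS) and MEFs carried 1 of the 3 hairpins. ES and iPS cells were grown in N2B27+2i+LIF medium and MEFs in medium with serum. In the Tead2 experiment, day 1 reprogramming cells carried a hairpin against Tead2 (shTead2) or shLuc. Every control therefore carried a hairpin vector, and every reprogramming library also carried the 3 factors and came from cells selected with puromycin for the hairpin virus. The labels give no hairpin sequence, and the comparisons of a knockdown with shLuc at a given time share their shLuc libraries.

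Ribosomal proteins are the protein part of the cytosolic ribosome: the small subunit decodes mRNA, the large subunit forms peptide bonds, and the stalk of Rplp0, Rplp1 and Rplp2 recruits the translation factors. Their mRNAs are among the most abundant and longest-lived in growing cells. Most begin with a cytosine followed by an unbroken pyrimidine run, the terminal oligopyrimidine (TOP) motif, through which mTORC1 and Larp1 control their translation. Paralogs with narrower expression exist: Rpl10l and Rpl39l are known from the testis, Rpl3l from heart and skeletal muscle, and Rps27l as a p53 target.

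RefSeq start sites of GRCm38.p6 were available for 60 of the 80 genes. The windows of 30 bases around the annotated start are shown for genes that the later results turn on, 5′ to 3′ on the gene's strand with the start at base 16. For Rps27l the first of its 2 annotated starts is shown. Capitals mark the longest run of C and T that begins with C within 3 bases of the start.
Rps6 (chr4:86857353-86857382, minus strand): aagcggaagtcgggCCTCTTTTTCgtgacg
Rps18 (chr17:33955651-33955680, minus strand): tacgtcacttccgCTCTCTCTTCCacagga
Rpl7a (chr2:26910792-26910821, plus strand): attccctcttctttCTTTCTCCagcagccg
Rps27 (chr3:90213634-90213663, minus strand): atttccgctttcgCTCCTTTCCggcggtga
Rplp2 (chr7:141447636-141447665, plus strand): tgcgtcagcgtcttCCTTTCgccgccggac
Rps27l (chr9:66946071-66946100, plus strand): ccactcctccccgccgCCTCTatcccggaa
Rpsa (chr9:120127751-120127780, plus strand): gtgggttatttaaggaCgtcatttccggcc
Rpl5 (chr5:107900513-107900542, plus strand): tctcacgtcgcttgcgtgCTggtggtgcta
Rpl10l (chr12:66284387-66284416, minus strand): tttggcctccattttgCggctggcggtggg
Rpl39l (chr16:10170213-10170242, plus strand): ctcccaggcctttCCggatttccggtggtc

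Runs of at least 5 bases stood at the annotated start of 24 of the 60 genes (40.0%), against 13.5% of all 27025 genes in the table. Rps18 had a run of 11 bases and Rps6 one of 10, while Rpsa, Rpl5, Rpl10l and Rpl39l had none that long. A run is a description of these letters, and an annotated start can lie some bases away from the one a cell uses.

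Most of these promoters carried an ATAC-seq peak, a sign of open chromatin, on every day of reprogramming. In the 12 ATAC-seq peak lists (3 hairpins on 4 days, 1 list each), a peak lay within 500 bases of the start of 55 to 57 of the 60 genes, against 41.9 to 47.2% of all 27025 genes. The same 55 genes had a peak in all 12 lists, Rps4x in 11 and Rpl4 in 10. Rpl3l, Rpl10l and Rpl39l had a peak in none, while Rps27l had one in all 12. The TEAD2 ChIP-seq list of day 1 had a peak at 18 of the 60 genes (30.0%), among them Rplp2, Rpl11, Rpl22, Rps27 and Rps27l, against 12.9% of all genes. Most of all genes had no ATAC-seq peak, unlike the members. Whether TEAD2 peaks were more frequent at the members than at other genes with an ATAC-seq peak was not tested. With 1 list per condition these counts have no replicate check.

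Expression is given in TPM, a share of transcripts which is corrected for transcript length, so levels can be compared between genes. A change is relative to the rest of the RNA, and fewer cells of a type cannot be told apart from less RNA per cell. Rplp1 was the highest member, with a mean of 5925 TPM over the time course, cell line and Tead2 libraries and a place of 8th among all genes. Rpl41 averaged 4934 TPM over the same libraries. The median of the members' means was 1570 TPM, 57 members averaged 1000 TPM or more, and 41 were among the 100 most abundant genes. Rpl3l was the lowest, with a mean of 0.74 TPM, and was listed at 0 in every lifetime library. Rpl10l, Rpl39l and Rpl5, a large subunit protein that with Rpl11 carries the 5S rRNA, were the other 3 members under 100 TPM, at 37.6, 70.4 and 73.2 TPM.

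Ribosomal protein genes have many processed pseudogenes, and the table holds 273 rows named as numbered pseudogenes of 58 of the members. For 13 members these rows held more TPM than the gene's own row. Rps12, of the small subunit, had a mean of 117 TPM in its own row and 5210 TPM in its pseudogene rows, so the own row held 2.12% of the sum. The own row held 11.0% for Rpl27, 15.2% for Rpl10 and 23.8% for Rps13. Reads of such near-identical copies can be assigned to either row, so the level of a gene with abundant pseudogene rows is uncertain. Each comparison was therefore also run with the named pseudogene rows added to their gene, and the sums are given for the counts they change and for the genes whose direction they turn.

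Read totals are not known from TPM, so no counting interval is given. Per library the members took 14.3 to 20.8% of TPM among cell lines, 8.75 to 13.9% during reprogramming, 12.9 to 13.3% with shTead2 and its control, and 8.95 to 18.5% in lifetime libraries. Mitochondrial transcripts took 3.06 to 10.4%, 3.97 to 14.9%, 4.06 to 5.12% and 1.06 to 5.58% of TPM in the same order. The labels held up against 7 fibroblast and 7 pluripotency markers: the summed fibroblast markers were 13.1 to 18.2 TPM in ES, 6.96 to 10.7 TPM in iPS and 4054 to 4095 TPM in MEF shLuc libraries, and the summed pluripotency markers 5348 to 5703, 5426 to 5488 and 1.14 to 1.37 TPM. Both libraries of a knockdown were below both shLuc libraries for its target in every matched group except Ythdf2 in actinomycin D, where they overlapped. For example, Ythdf2 was 9.69 and 15.1 TPM in ES shYthdf2 and 37.9 and 35.8 TPM in ES shLuc libraries, Ythdf3 was 20.4 and 5.21 TPM in day 1 shYthdf3 and 39.6 and 32.7 TPM in day 1 shLuc libraries, and Tead2 was 38.0 and 29.3 TPM in shTead2 and 92.9 and 92.1 TPM in shLuc libraries.

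**Figure D1:**
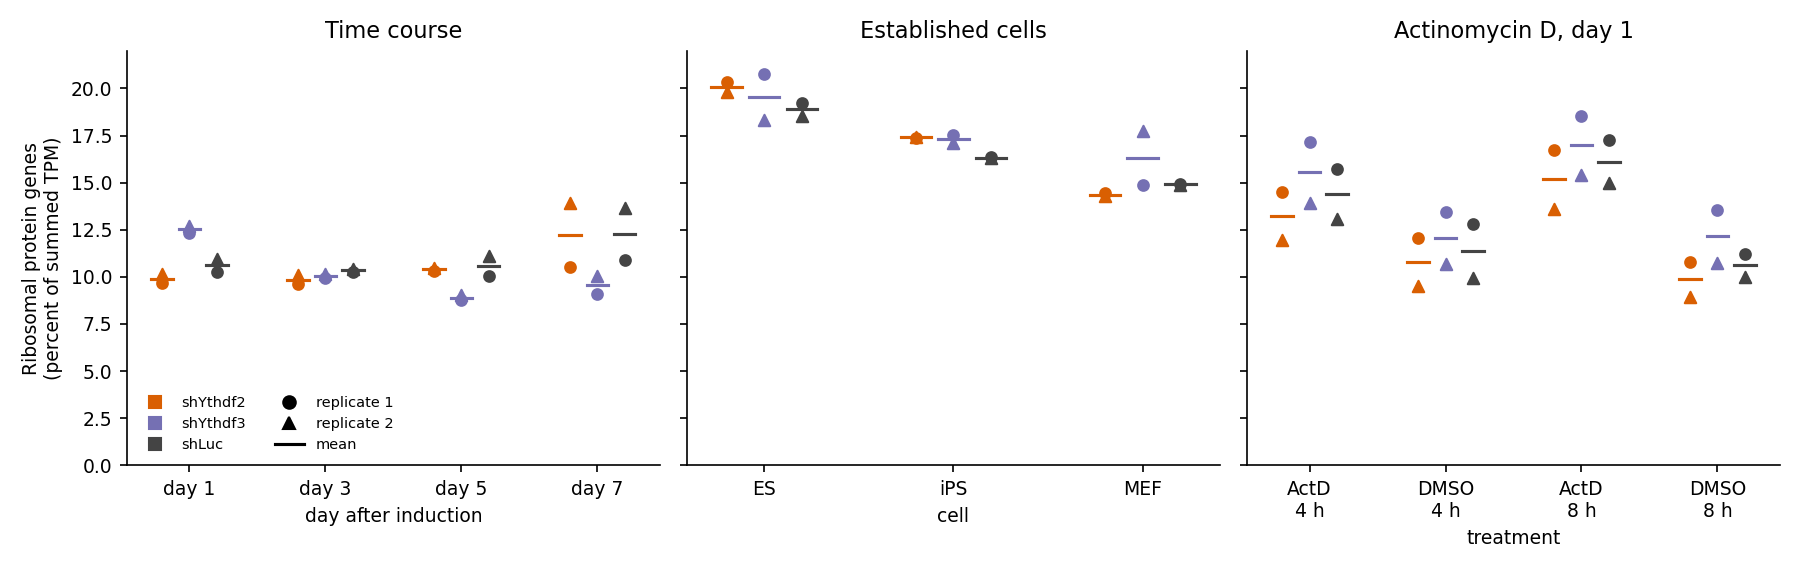
Share of all TPM held by the 80 cytosolic ribosomal protein genes (y axis, percent) in the time course, cell line and lifetime libraries, by hairpin (colour) and group (x axis); circles are replicate 1, triangles replicate 2 and lines group means. The share was 18.3 to 20.8% in ES libraries, 14.3 to 17.7% in MEF libraries, and 17.2 and 15.0% after 8 h of actinomycin D against 11.2 and 9.99% in DMSO in shLuc cells.

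By their own rows, ribosomal protein genes took a larger share of TPM in pluripotent cells than in fibroblasts. In shLuc cells they held 19.2 and 18.5% of TPM in ES cells, 16.4 and 16.3% in iPS cells, and 15.0 and 14.9% in MEFs. The 3 cell types did not overlap in this share. The named pseudogene rows, left out of it, held means of 3.30% in ES, 2.82% in iPS and 3.92% in MEF shLuc cells. They were thus highest in MEFs, where the own-row share was lowest. The own-row means differed by 3.98 points between ES cells and MEFs and by 1.42 points between iPS cells and MEFs. Counting the pseudogene rows narrows both differences, that of iPS cells the more, and the share with both kinds of row was not tested. All 3 comparisons between them use the same 6 shLuc libraries, so they are not independent.

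In ES cells against MEFs, 54 of the 80 genes were higher and 6 lower at a Benjamini-Hochberg adjusted p under 0.05 by limma, with 30% of all 17985 genes tested higher and 32.9% lower. The median log2 change was 0.33 over the members and 0.00 over all genes. The higher genes comprised 19 of the small subunit, 30 of the large subunit, 2 of the stalk and 3 of the 4 paralogs. Both ES libraries stood above both MEF libraries for 60 genes and below them for 11, where the same held for 37.7 and 40.2% of all genes.

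Rps18, a protein of the small subunit head, had 3490 and 3270 TPM in ES cells and 464 and 520 TPM in MEFs, a log2 change of 2.78 (SE 0.07, adjusted p = 1.22e-11). Rpl7a, a large subunit protein, had 3682 and 3682 TPM in ES cells and 919 and 903 TPM in MEFs, a log2 change of 2.01 (SE 0.05, adjusted p = 3.63e-12). Rpl22, an RNA-binding large subunit protein, had 1627 and 1446 TPM in ES cells and 816 and 820 TPM in MEFs, a log2 change of 0.91 (adjusted p = 1.00e-05). For all 3 genes the cell types were far apart compared with the distance between replicates. Day 1 shLuc cells of the Tead2 experiment, which derive from MEFs, were above both MEF libraries for all 3. They had 1298 and 1340 TPM for Rps18, 2417 and 2302 TPM for Rpl7a, and 996 and 1030 TPM for Rpl22. The day 1 cells and the MEFs belong to different experiments, and why the MEF values were lower was not tested. In ES cells over MEFs Rpl32 rose by 0.86 on the log2 scale, Rpl11 by 0.63, Rps25 by 0.51, and among the stalk genes Rplp2 by 0.49 and Rplp1 by 0.26.

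Rplp0, the stalk base that anchors Rplp1 and Rplp2, went the other way, with 2294 and 2231 TPM in ES cells and 3390 and 3435 TPM in MEFs, a log2 change of -0.59 (SE 0.06, adjusted p = 2.61e-06). Rpl23 changed by -0.31 and Rps6, the small subunit protein phosphorylated by S6 kinase, by -0.27. The 3 stalk genes thus did not move together between these cell types.

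Rps2, a small subunit protein, and Rps13, another, had own rows and pseudogene rows of opposite profile between cell types; how the reads were divided among these rows was not tested. The Rps2 row (chr17:24718121-24721927) had 4028 and 4023 TPM in ES cells, 4474 and 4418 TPM in iPS cells, and 87.0 and 79.8 TPM in MEFs, a log2 change of 5.58 for ES cells over MEFs. Rps2-ps13 had 13.6 and 0 TPM in ES cells and 3124 and 3149 TPM in MEFs, and Rps2-ps10 had 450 and 445 TPM in ES cells and 3193 and 3265 TPM in MEFs. With pseudogene rows summed, the Rps2 change became -0.46 for ES cells and -0.44 for iPS cells over MEFs. The Rps2 row was at 3034 and 3207 TPM in day 1 shLuc reprogramming cells, which derive from MEFs but belong to another experiment.

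The Rps13 row (chr7:116331507-116334190) had the opposite profile, with 112 and 157 TPM in ES cells, 544 and 521 TPM in iPS cells, and 1070 and 1034 TPM in MEFs. Its log2 change was -2.98 for ES cells over MEFs. Rps13-ps1 had 2323 and 2124 TPM in ES cells, 1662 and 1706 TPM in iPS cells, and 394 and 387 TPM in MEFs, and the summed change was 0.69 for ES cells and 0.60 for iPS cells over MEFs. Rpl35a, at 1.31 for ES cells over MEFs in its own row, became -0.15 when summed, and Rps12 moved from a call of -0.45 to 0.03. The counts over the family barely moved: with pseudogene rows summed 51 genes were higher and 6 lower in ES cells than in MEFs, of which 50 and 4 were called in the own rows too, against 30 and 33% of all genes.

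**Figure D2:**
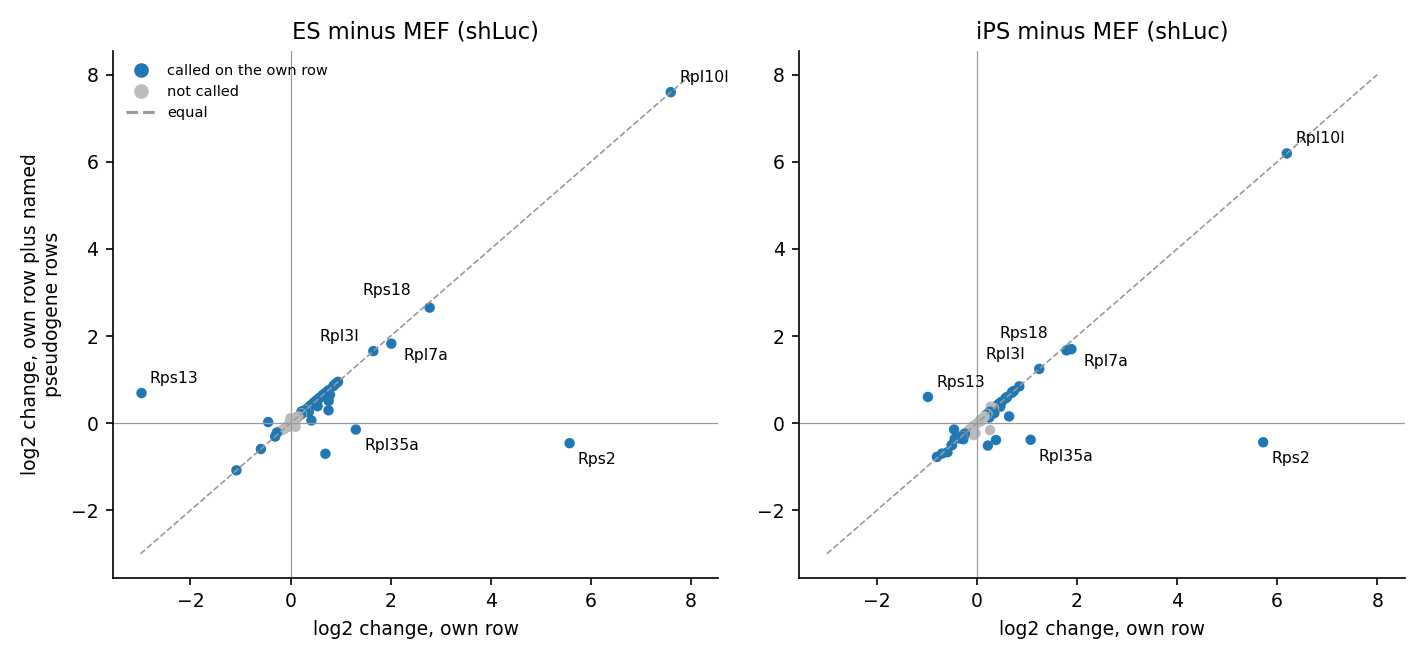
Log2 change of each ribosomal protein gene in ES (first panel) and iPS (second panel) over MEF shLuc cells, from the gene's own row (x axis) and with the named pseudogene rows summed (y axis); each point is 1 gene, blue where called on the own row, and the dashed line marks equal values. Most genes lie near the diagonal, while Rps2 sits at 5.58 on the x axis and -0.46 on the y axis and Rps13 at -2.98 and 0.69 in the ES panel.

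In iPS cells against MEFs, 38 genes were higher and 15 lower by limma, with 33% of all genes higher and 29.4% lower, and the median log2 change was 0.20. Both iPS libraries stood above both MEF libraries for 50 genes and below for 27, against 42.2 and 37.1% of all genes. Rpl7a had 3416 and 3329 TPM in iPS cells and 919 and 903 TPM in MEFs (log2 change 1.89), and Rps18 had 1717 and 1681 TPM in iPS cells and 464 and 520 TPM in MEFs (log2 change 1.79). Rps7 rose by 0.74, Rpl22 by 0.71 and Rpl29 by 0.70. Rpl26 had 1815 and 1826 TPM in iPS cells and 2952 and 2958 TPM in MEFs, and fell by 0.70 on the log2 scale. Rpl21 changed by -0.80, and Rpl38, a large subunit protein known for its role in translating Hox mRNAs, by -0.59. Summing pseudogene rows left 35 genes higher and 18 lower, 33 and 13 of them called in the own rows, against 33.1 and 29.5% of all genes, and turned Rpl35a to -0.38.

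iPS cells were below ES cells for most of the family. Against ES cells, 6 genes were higher and 19 lower in iPS cells by limma, with 14.6% of all genes higher and 5.62% lower, and the median log2 change was -0.17 over the members and 0.09 over all genes. Both iPS libraries were below both ES libraries for 63 genes and above for 8, against 20 and 36.8% of all genes. Rpl21 had 561 and 556 TPM in iPS cells and 1287 and 1191 TPM in ES cells, a log2 change of -1.15 (SE 0.14, adjusted p = 2.45e-04). Rpl32 had 3209 and 3196 TPM in iPS cells and 5323 and 5116 TPM in ES cells, a log2 change of -0.70. Rps18 changed by -0.99, Rpl26 by -0.90 and Rps20 by -0.71.

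Among the 6 genes higher in iPS cells, Rps7 had 1039 and 1055 TPM in iPS cells and 736 and 668 TPM in ES cells (log2 change 0.58), and Rpl29 had 1737 and 1777 TPM in iPS cells and 1243 and 1265 TPM in ES cells (log2 change 0.49). Rplp0 rose by 0.35. Rps13 at 2.00 and Rpl34 at 0.39 in their own rows turned to -0.09 and -0.41 with pseudogene rows summed, and Rps26, at -0.48 in its own row, turned to 0.19. Summed rows called 4 genes higher, all of them among the 6, and 20 lower, 17 of them among the 19, against 14.7 and 5.63% of all genes. Leaving out 1 library changed these cell line counts without emptying any of them: 46 to 53 genes were called between ES cells and MEFs, 42 to 50 between iPS cells and MEFs, and 14 to 24 between iPS and ES cells. The last count was 15 without ES replicate 1, 15 without iPS replicate 1 and 14 without iPS replicate 2.

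The paralogs, none of which has a named pseudogene row in the table, each had a profile of its own over the cell types. Rpl10l (chr12:66283379-66284401) had 194 and 192 TPM in ES cells, 78.2 and 66.6 TPM in iPS cells, and was listed at 0 in both shLuc MEF libraries. Its log2 change was -1.41 for iPS over ES cells (SE 0.14, adjusted p = 6.7e-05), and the fitted change over MEFs depends on the pseudocount because of the zeros. Rpl10, its X-linked parent gene, had 496 and 390 TPM in ES cells, 345 and 284 TPM in iPS cells, and 271 and 247 TPM in MEFs. Both genes were highest in ES cells, and Rpl10 is 1 of the 13 genes whose pseudogene rows exceed the own row.

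Among the cell lines Rpl39l (chr16:10170197-10174911) was lowest in ES cells, with 100 and 93.8 TPM, against 162 and 132 TPM in iPS cells and 201 and 212 TPM in MEFs. In day 1 shLuc cells of the Tead2 experiment, which derive from MEFs, it had only 16.1 and 9.23 TPM. The MEFs and those day 1 cells belong to different experiments, so a change between the cells cannot be told apart from a difference between experiments. The change for ES cells over MEFs was -1.08 (SE 0.09, adjusted p = 5.05e-07) and for iPS over ES cells 0.59 (SE 0.09). Rpl39 had 1367 and 1039 TPM in ES cells, 941 and 923 TPM in iPS cells, and 994 and 1053 TPM in MEFs. Rps27l (chr9:66944624-66949522) had 761 and 626 TPM in ES cells, 548 and 538 TPM in iPS cells, and 347 and 367 TPM in MEFs, and rose by 0.95 in ES cells (adjusted p = 1.17e-05) and by 0.60 in iPS cells over MEFs. Rps27, its more abundant relative, had 4378 and 3557 TPM in ES cells, 3028 and 3153 TPM in iPS cells, and 3515 and 3699 TPM in MEFs, where the ES and MEF libraries overlapped. Rpl3l had at most 4.04 TPM in any library.

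**Figure D3:**
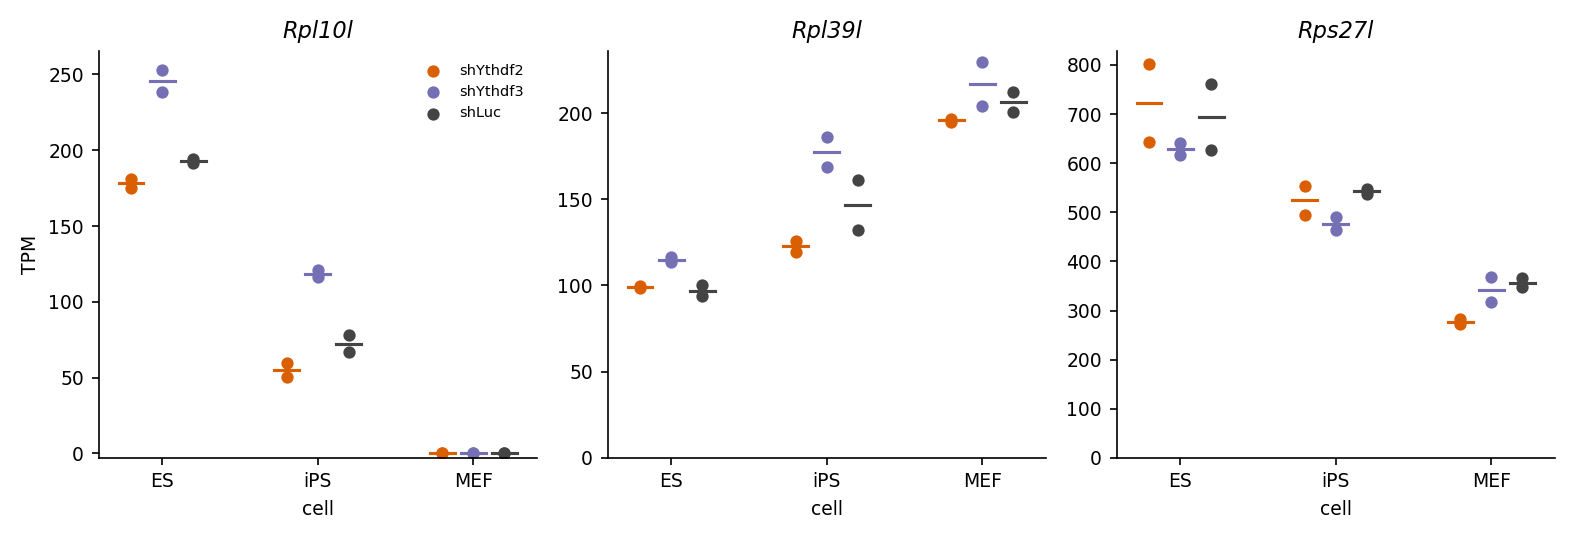
TPM of the paralogs Rpl10l, Rpl39l and Rps27l (y axis, 1 panel each) in the ES, iPS and MEF libraries (x axis) with each hairpin (colour); each point is 1 library and lines are group means. Rpl10l was at 175 TPM or more in ES, 50.5 to 121 TPM in iPS and at most 0.27 TPM in MEF libraries.

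Genes that build ribosomes differed between the cell types more than the ribosomal protein genes did, by their medians. Of 34 ribosome biogenesis factors, 28 were higher and 1 lower in ES cells than in MEFs with a median log2 change of 0.99, and 33 were higher and 0 lower in iPS cells with a median of 0.98. Gnl3, a nucleolar GTPase, rose by 1.40 in ES and 1.72 in iPS cells, Dkc1, the pseudouridine synthase of the box H/ACA particles, by 1.43 and 2.01, and Rrp9 by 2.02 and 1.85. Of 12 genes for RNA polymerase I and rRNA transcription, 10 were higher and 0 lower in each, with medians of 0.76 and 0.81. The difference between these lists and the members was not tested. The shares of all genes called in the same comparisons are given above, and these counts were not tested against them.

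Other TOP mRNAs did not share a direction: 6 of 17 were higher and 7 lower in ES cells, 8 higher and 4 lower in iPS cells. Npm1, a nucleolar chaperone, rose by 1.31 in ES and 1.32 in iPS cells, while the initiation factor Eif3h changed by -0.87 in ES cells. Among 17 genes of mTORC1 and TOP mRNA control, 5 were higher and 7 lower in ES cells, and 7 higher and 4 lower in iPS cells. The counts in this paragraph were not tested against the shares of all genes given above for the same comparisons. In ES cells the counts of both these lists lie near those shares. Mycn rose by 3.72 in ES and 4.14 in iPS cells, Myc changed by -2.09 and -2.11, and Eif4ebp1, a translation repressor controlled by mTORC1, rose by 2.27 and 1.77. Of the 6 ribosomal proteins named otherwise, 5 were higher and 1 lower in ES cells, and 3 higher and 1 lower in iPS cells, with Rpl7l1 at 1.06 and 1.08.

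Few of these genes passed the test after knockdown of Ythdf2 or Ythdf3 in the established cells. In ES cells shYthdf2 called Rpl23a alone (1 of 80, against 1.91% of all genes higher), and 12 members had an unadjusted p under 0.05. Rpl23a, a protein at the peptide exit tunnel, had 5413 and 5260 TPM in shYthdf2 and 4794 and 4554 TPM in shLuc ES cells, a log2 change of 0.19 (SE 0.05, adjusted p = 0.0453 by limma). That call was lost (0 members) when any 1 of the 4 libraries was left out. In iPS cells shYthdf2 called 0 members by limma (10 at an unadjusted p under 0.05), where 2.48% of all genes were called. Rpl23a was 4470 and 4597 TPM in shYthdf2 and 4085 and 4141 TPM in shLuc iPS cells, which did not overlap. The share of TPM over the whole family was 20.4 and 19.8% in shYthdf2 and 19.2 and 18.5% in shLuc ES cells, and 17.4 and 17.4% in shYthdf2 and 16.4 and 16.3% in shLuc iPS cells. Both shYthdf2 libraries stood above both shLuc libraries for 40 members and below for 8 in ES cells, against 21.8 and 23% of all genes, and above for 50 and below for 7 in iPS cells, against 22.9 and 22.5%. The median log2 change of the members was 0.08 in each line.

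In MEFs the share was slightly lower with shYthdf2, at 14.4 and 14.3% against 15.0 and 14.9% with shLuc. Both shYthdf2 libraries were above for 6 members and below for 37, against 17.1 and 21.7% of all genes. Rps2 was called lower (1 of 80, against 0.973% of all genes), with 60.2 and 60.2 TPM in shYthdf2 and 87.0 and 79.8 TPM in shLuc MEFs, a log2 change of -0.46 (SE 0.06, adjusted p = 0.00502). That call rests on the own row, and 0 members were called with pseudogene rows summed. Of the 34 ribosome biogenesis factors, 6 were lower with shYthdf2 in ES cells, 3 in iPS cells and 6 in MEFs and 0 were higher in each, where 1.74, 0.901 and 0.973% of all genes were lower. Myc changed by -1.30 in ES and -0.99 in iPS cells.

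With shYthdf3, ES cells had 0 members called by limma (6 at an unadjusted p under 0.05), against 1.64% of all genes. Some members were called without shYthdf3 replicate 2, where the share of all genes called is not given. iPS cells had 2 called higher, against 1.2% of all genes: Rpl23a, with 4721 and 4776 TPM in shYthdf3 and 4085 and 4141 TPM in shLuc cells (log2 change 0.21, adjusted p = 0.0380), and Rpl10l, with 116 and 121 TPM in shYthdf3 and 78.2 and 66.6 TPM in shLuc cells (log2 change 0.71, SE 0.14, adjusted p = 0.0212). Both calls were lost when any 1 of the 4 libraries was left out, and 1 was left with the replicate block or median-ratio scaling, against 1.02 and 1.49% of all genes. Rpl10l was ordered the same way in ES cells without passing the test there, with 253 and 239 TPM in shYthdf3, 181 and 175 TPM in shYthdf2, and 194 and 192 TPM in shLuc cells. In iPS cells shYthdf2 gave 50.5 and 59.6 TPM, so in both pluripotent lines the shYthdf2 libraries were below and the shYthdf3 libraries above those of shLuc. The family share with shYthdf3 was 17.5 and 17.1% in iPS cells, above both shLuc libraries, and 20.8 and 18.3% in ES cells, where the libraries overlapped. Both shYthdf3 libraries stood above both shLuc libraries for 48 members and below for 7 in iPS cells, against 18.7 and 27.9% of all genes, and above for 13 and below for 7 in ES cells, against 20 and 17.3%.

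MEFs with shYthdf3 had 0 members called by limma (15 at an unadjusted p under 0.05), against 0.628% of all genes. Both shYthdf3 libraries were above for 27 members and below for 3, against 10.3 and 25.7% of all genes. Their libraries differed: the family share was 14.9% in replicate 1 and 17.7% in replicate 2 of shYthdf3, and 15.0 and 14.9% in shLuc. Mitochondrial transcripts took 10.4 and 7.65% of TPM in these shYthdf3 libraries and 8.64 and 8.91% in shLuc, and their part in the result was not tested. Leaving out either shYthdf3 library raised the number of members called, and the share of all genes called is not given for those fits.

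Actinomycin D blocks transcription, and the lifetime experiment used it to follow how long existing mRNAs last. Ribosomal protein mRNAs gained share in treated cells while most genes lost it. In shLuc cells the family held 15.7 and 13.1% of TPM after 4 h of actinomycin D and 12.8 and 9.97% after 4 h of DMSO, and 17.2 and 15.0% after 8 h of actinomycin D and 11.2 and 9.99% after 8 h of DMSO. The gain held within each replicate number. Fewer genes reached 1 TPM after 8 h of actinomycin D, 11653 and 12877, against 14682 and 15112 in DMSO. The 7 fibroblast markers summed to 2135 to 3540 TPM with 8 h of actinomycin D and 1702 to 2275 TPM with DMSO, and mitochondrial transcripts took 1.45 and 2.94% of TPM with actinomycin D and 3.07 and 5.58% with DMSO. Their part in the result was not tested.

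At 4 h, 4 of 78 members were higher and 0 lower by limma, against 0.41% of all 19290 genes higher, and 14 had an unadjusted p under 0.05. The median log2 change was 0.32 over the members and -0.31 over all genes. Among the 4 were Rpsa (0.54, adjusted p = 0.0253), Rpl23a (0.52, adjusted p = 0.0157) and Rps7 (0.49, adjusted p = 0.0416). Replicate numbers paired the libraries of this experiment, and with the replicate number as a block 42 members were higher and 0 lower, against 1.76% of all genes higher. Both actinomycin D libraries stood above both DMSO libraries for 38 members and below for 1, against 6.99 and 36.8% of all genes. The 4 calls fell to 0 without actinomycin D 4 h replicate 1.

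At 8 h, 27 of 78 were higher and 0 lower by limma, against 1.52% of all genes higher, with a median log2 change of 0.57 over the members and -0.63 over all genes. Both actinomycin D libraries stood above both DMSO libraries for 61 members and below for 2, against 7.52 and 50.6% of all genes. With the replicate block 61 were higher and 1 lower, against 3.93% and 38.7% of all genes. The small subunit supplied 15 of the 27, the large subunit 11 and the stalk 1. Median-ratio scaling called 8 members at 4 h and 63 at 8 h, against 1.28 and 8.48% of all genes higher, with medians of 0.66 and 1.31 over the members and -0.07 and -0.18 over all genes. With pseudogene rows summed 32 were higher and 0 lower at 8 h, 23 of them among the 27, against 1.58% of all genes higher. The 27 became 10 without actinomycin D 8 h replicate 1, 16 without DMSO 8 h replicate 1 and 9 without DMSO 8 h replicate 2.

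Rplp1, of the stalk, had 10470 and 9679 TPM after 8 h of actinomycin D and 5764 and 5712 TPM in DMSO, a log2 change of 0.81 (SE 0.19, adjusted p = 0.00397). Rpsa, a small subunit protein also known as the laminin receptor, had 4911 and 5018 TPM with actinomycin D and 2852 and 2925 TPM in DMSO, a log2 change of 0.78 (SE 0.15, adjusted p = 8.16e-04). Rps27 had 3816 and 3494 TPM with actinomycin D and 2113 and 2246 TPM in DMSO, a log2 change of 0.74. These gains exceeded the distance between replicates in each gene. Rps23 and Rpl37a rose by 0.78 each, Rps21 and Rpl36 by 0.76 each, Rps7 by 0.72, and Rps25 by 0.68. With pseudogene rows summed Rps23 was no longer called (0.68, SE 0.36, adjusted p = 0.177 by limma), and Rps12 was (0.83, SE 0.18, adjusted p = 0.00269).

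Of the 78 members 75 had a positive change at 8 h. Rpl5 had 44.0 and 34.4 TPM after 8 h of actinomycin D and 64.1 and 68.0 TPM in DMSO, a log2 change of -0.75 (SE 0.29). By limma it missed the threshold (adjusted p = 0.0670) and passed it with the replicate block (adjusted p = 0.0447). With pseudogene rows summed the Rpl5 change was -0.57 (SE 0.25) and not called (adjusted p = 0.101 by limma). Rpl39l was at -0.61 (SE 0.81) and Rps27l at 0.12 (SE 0.25), neither past the test. Rps6 had 906 and 685 TPM with actinomycin D and 783 and 555 TPM in DMSO, where the libraries overlapped. Rps6 and Rps27 both begin with a long pyrimidine run in the sequences above, and Rpsa and Rpl5 do not.

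**Figure D4:**
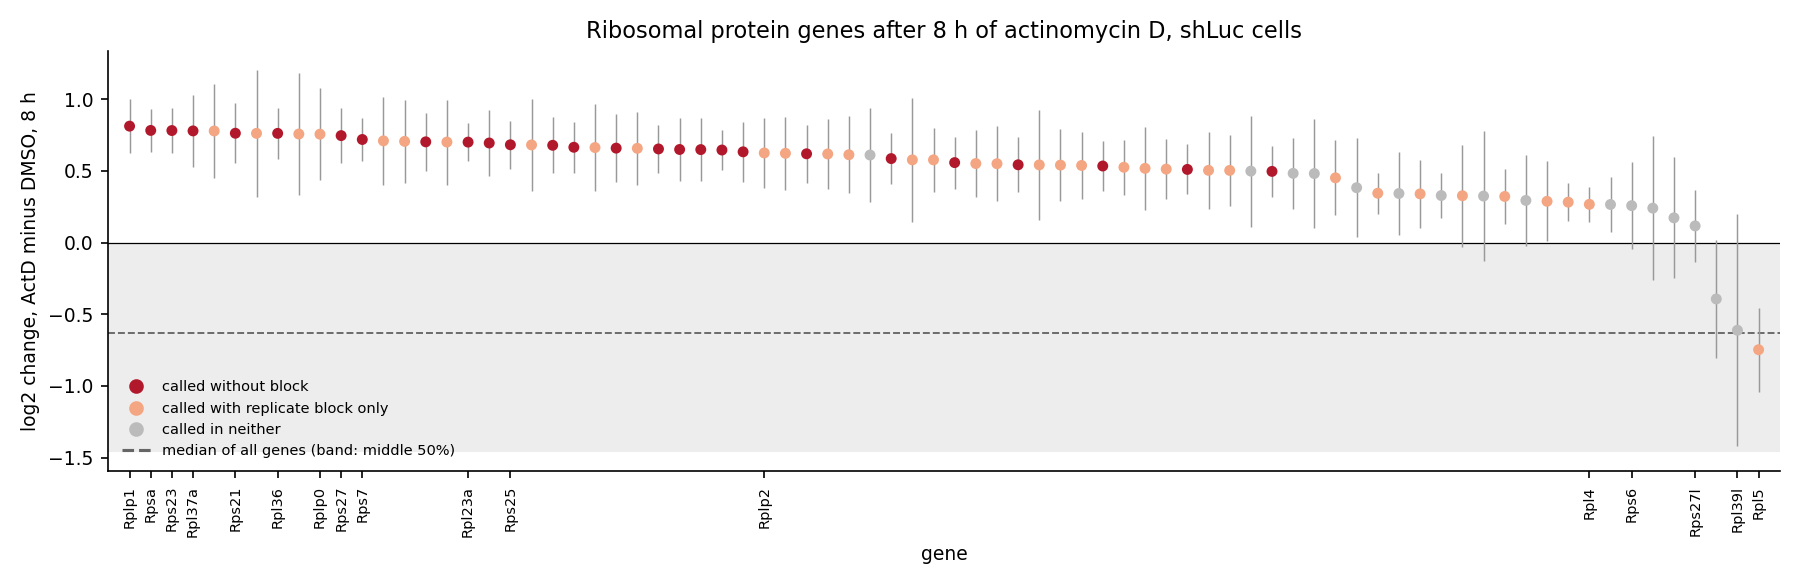
Log2 change of each ribosomal protein gene with actinomycin D over DMSO at 8 h in shLuc cells (y axis), ordered by size along the x axis with some genes labelled, with error bars of 1 SE; dark red points were called by limma, orange points only with the replicate block and grey points in neither, and the dashed line and band give the median and middle 50% of all genes. The 27 genes called without the block lie between 0.50 and 0.81, and Rpl5 lies lowest at -0.75.

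Many genes that make ribosomes were lower in the same libraries, as were 28.5% of all genes. At 8 h of actinomycin D, 16 of 34 biogenesis factors were lower and 1 higher (median -1.04), with Gnl3 at -3.68, Rrs1 at -3.64 and Nop2 at -2.62. Of the 12 RNA polymerase I genes 8 were lower and 0 higher (median -1.63), and of 17 mTORC1 and TOP control genes 13 were lower and 0 higher, Myc by -4.06. Among the other TOP mRNAs 1 of 17 was higher, the elongation factor Eef1a1 at 0.44, and 1 lower, Eif4b at -1.36, with a median of 0.24. The 6 ribosomal proteins named otherwise had 0 called and a median of 0.40.

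The gain with actinomycin D was present with all 3 hairpins. In shYthdf2 cells the median log2 change of the members was 0.29 at 4 h and 0.59 at 8 h, in shYthdf3 cells 0.37 and 0.42, and in shLuc cells 0.32 and 0.57. Rplp1 reached 10339 and 9182 TPM after 8 h of actinomycin D in shYthdf2 cells, against 5689 and 5454 TPM in DMSO, and 13358 and 10675 TPM in shYthdf3 cells, against 8281 and 6567 TPM in DMSO. When the actinomycin D effect of each knockdown was set against the shLuc effect, averaged over both times, 0 of 78 members differed with shYthdf2 and 0 with shYthdf3 by limma. None had an unadjusted p under 0.05 in either (0 and 0), and 0.0156 and 0.00518% of all genes were called. The medians were -0.02 with shYthdf2 and -0.04 with shYthdf3, beside a median SE of 0.24 for a single gene. Ythdf2 itself had 5.05 and 4.89 TPM in shYthdf2 and 9.48 and 3.54 TPM in shLuc cells after 4 h of actinomycin D, and 5.28 and 9.16 TPM in shYthdf2 and 6.48 and 9.19 TPM in shLuc cells after 8 h, so the treated arms overlapped.

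During reprogramming the shLuc cells held 10.3 and 10.9% of TPM in these genes on day 1, 10.2 and 10.4% on day 3, 10.0 and 11.1% on day 5, and 10.9 and 13.6% on day 7. The shares of days 1 and 7 overlapped, while the summed fibroblast markers were 474 to 499 TPM on day 7 and 1995 to 2275 TPM on day 1. By limma 0 of 79 members differed between days 7 and 1 (1 at an unadjusted p under 0.05), against 6.83% of all 21303 genes, and the median log2 change was 0.19. Rps27l had 424 and 438 TPM on day 7 and 675 and 774 TPM on day 1, a log2 change of -0.75 that missed the threshold (adjusted p = 0.0864) and was the only member to pass with the replicate block (adjusted p = 0.0292), against 4.97% of all genes lower. Same-numbered libraries deviated together in the time course, so values with the replicate block are given wherever they change a call.

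Averaged over the 4 days, shYthdf2 called 0 of 79 members by limma (0 at an unadjusted p under 0.05), against 3.54% of all genes, with a median log2 change of -0.04. With the replicate block 2 were lower, against 3.56% of all genes: Rpl9 at -0.30 (adjusted p = 0.0178) and Rpl6 at -0.32 (adjusted p = 0.0132), both of the large subunit. Averaged in the same way, shYthdf3 called 0 members (6 at an unadjusted p under 0.05), against 5.26% of all genes, with a median of -0.14.

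With the replicate block shYthdf3 had 1 member higher and 12 lower, against 5.52 and 4.94% of all genes. The higher one was Rpl23a, which had 3554 and 3782 TPM in shYthdf3 and 2898 and 2889 TPM in shLuc cells on day 1. Rpl29, a large subunit protein, had the largest change of the 12, at -0.54 (adjusted p = 0.00309 with the block), with 463 and 1078 TPM in shYthdf3 and 852 and 1944 TPM in shLuc cells on day 5. Its replicate 2 libraries were higher than its replicate 1 libraries in every group, while each shYthdf3 library of day 5 was below the same-numbered shLuc one. With pseudogene rows summed and no block Rpl15 was lower (-0.37, adjusted p = 0.0413 by limma), against 2.53% of all genes. With the block Rpl6, Rpl8, Rpl11, Rpl7a and Rpl7 changed by -0.33, -0.33, -0.32, -0.31 and -0.27. Against shYthdf3, shYthdf2 had 0 members called (2 at an unadjusted p under 0.05; 7.01% of all genes called), and 6 higher with the block, against 6.19% of all genes, led by Rpl29 at 0.60 and Rpl37 at 0.31.

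The shYthdf3 average covers a change of direction over time. On day 1 the family held 12.3 and 12.7% of TPM in shYthdf3 and 10.3 and 10.9% in shLuc cells, and 70 of 79 members were positive with a median log2 change of 0.21. On day 3 the shares were 9.93 and 10.1% in shYthdf3 and 10.2 and 10.4% in shLuc cells, with a median of -0.05. On day 5 they were 8.75 and 9.03% in shYthdf3 and 10.0 and 11.1% in shLuc cells, with a median of -0.26. On day 7 they were 9.08 and 10.0% in shYthdf3 and 10.9 and 13.6% in shLuc cells, with 76 of 79 members negative and a median of -0.40. The shYthdf3 and shLuc libraries did not overlap on any of the 4 days.

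Both replicate pairs showed this course, with medians of 0.21 and 0.19 on day 1 and of -0.26 and -0.52 on day 7. For shYthdf2 the medians were -0.10, -0.06, -0.0034 and -0.03 on days 1, 3, 5 and 7. Gene by gene the turn was not established: the difference between the day 7 and day 1 effects of shYthdf3 called 0 of 79 members by limma and 0 of all 21303 genes (0%), and 15 members had an unadjusted p under 0.05. Its median was -0.62 over the members, with 78 of 79 negative, and 0.13 over all genes, beside a median SE of 0.46 for a single gene. The members share the same libraries, so the 15 and the 78 are not counts of independent results. Rpl30 was at -0.93 (SE 0.29) and Rpl15 at -1.32 (SE 0.48). For shYthdf2 the same difference called 0 members, against 0.00469% of all genes, with a median of 0.08.

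Rpl15, a large subunit protein, shows the pattern in single libraries. It had 716 and 632 TPM in shYthdf3 and 419 and 534 TPM in shLuc cells on day 1, and 291 and 305 TPM in shYthdf3 and 447 and 612 TPM in shLuc cells on day 7. The day 1 shYthdf3 replicates were unlike in some other genes. Ythdf2 was 71.3 TPM in replicate 1 and 22.7 TPM in replicate 2, and replicate 1 had the highest Rpl39l of the time course, 247 TPM. Mitochondrial transcripts took 3.97 and 7.61% of TPM in shYthdf3 and 5.22 and 8.73% in shLuc cells on day 1, and 6.95 and 14.9% in shYthdf3 and 5.90 and 8.00% in shLuc cells on day 7. Their part in the result was not tested. Without shYthdf3 day 1 replicate 2 some members passed the test of the difference between days, where the share of all genes passing is not given.

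**Figure D5:**
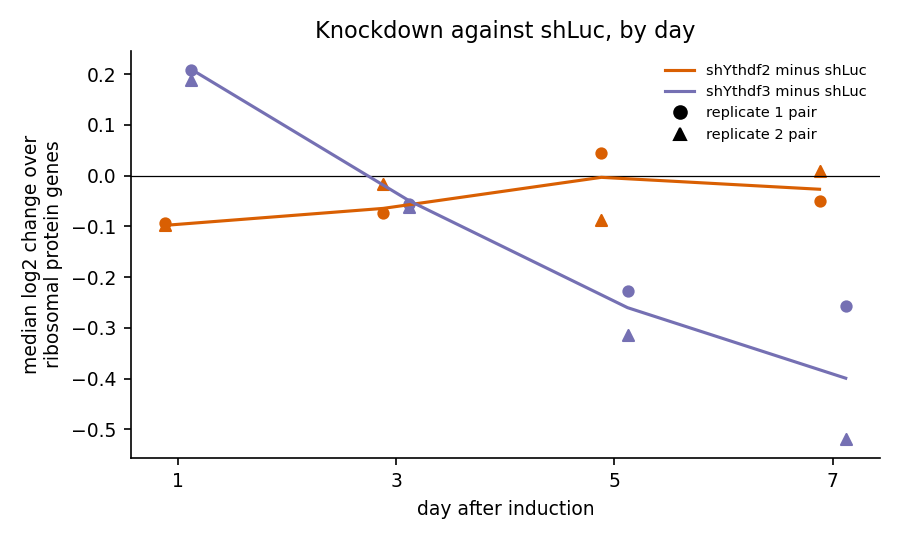
Median log2 change over the ribosomal protein genes in shYthdf2 and shYthdf3 over shLuc cells (y axis) by day of reprogramming (x axis); lines join the medians of group means, and circles and triangles are the medians within replicate pairs 1 and 2. The shYthdf3 line runs through 0.21, -0.05, -0.26 and -0.40, and the shYthdf2 line stays between -0.10 and -0.0034.

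The DMSO arms of the lifetime experiment are a separate set of day 1 cells with the same hairpins. Over both DMSO times shYthdf3 called 0 of 78 members by limma (13 at an unadjusted p under 0.05), against 0.7% of all genes, with a median log2 change of 0.11. With the replicate block 12 were higher and 1 lower, against 0.938 and 2.88% of all genes. The higher ones were led by Rps27a, which is made as a fusion with ubiquitin, at 0.41 (adjusted p = 0.0498), Rps20 at 0.39 (adjusted p = 0.00997) and Rpl23a at 0.38 (adjusted p = 0.00231). Rpl23a had 4106, 3688, 4334 and 3487 TPM in the 4 shYthdf3 libraries and 3060, 3200, 2821 and 2921 TPM in the 4 shLuc libraries, which did not overlap. Rpl23a was also called higher with the block in the time course average.

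In the same DMSO arms shYthdf2 called 0 of 78 members by limma (1 at an unadjusted p under 0.05), against 0.342% of all genes, with a median of -0.09. With the block Rps27l alone was lower, against 0.959% of all genes, at -0.57 (adjusted p = 0.0104). It had 549, 435, 500 and 400 TPM in shYthdf2 libraries, 1019, 759, 1031 and 707 TPM in shYthdf3 libraries, and 718, 651, 683 and 726 TPM in shLuc libraries. The shYthdf2 libraries were all below and the shYthdf3 libraries overlapped the shLuc ones. In day 1 time course cells Rps27l had 586 and 740 TPM in shYthdf2, 765 and 912 TPM in shYthdf3, and 675 and 774 TPM in shLuc cells, where each shYthdf2 library was below the same-numbered shLuc one while the groups overlapped.

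With Tead2 knockdown no member passed the test. The family held 13.3 and 12.9% of TPM in shTead2 and 12.9 and 12.9% in shLuc cells, and 0 of 78 members were called by limma (3 at an unadjusted p under 0.05), against 0.0879% of all genes. The median log2 change was 0.02, and the largest single values were Rpl10 at -0.51 (SE 0.15) and Rpl27a at 0.36 (SE 0.11), neither past the test. Without shTead2 replicate 2 a member was called lower, where the share of all genes called is not given. Rplp1 had 5551 and 5700 TPM in shTead2 and 6014 and 6137 TPM in shLuc cells. The 4 endothelial markers summed to 76.1 to 156 TPM in shTead2 and 2.99 to 4.02 TPM in shLuc libraries, and their part in these values was not tested. With 2 residual degrees of freedom this experiment could show only large changes.

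Members also differed in how steady they were. Across the cell line libraries the SD of log2(TPM + 1) had a median of 0.24 over the members, from 0.09 for Rps9 to 3.40 for Rpl10l, and in the time course a median of 0.32, from 0.15 for Rpl4 to 1.27 for Rpl39l, which was 0.77 without day 1 shYthdf3 replicate 1, where Rpl28 was highest at 1.09. Rpl28 ranged over 189 to 1427 TPM in the time course, and it is 1 of the 13 genes whose pseudogene rows exceed the own row.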

How the data were processed

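RNA was measured in 70 libraries, 24 of the time course, 18 of the cell lines, 4 of the Tead2 and 24 of the lifetime experiment. The authors deposited TPM per gene. Per the submitters' processing notes, RSEM, Bowtie2, SAMtools, MACS2 and deepTools were used on mm10; no source used here gives their versions or settings. The authors deposited 1 peak list per chromatin library, of which only positions were used. Of the spike-in file, 24 columns matched no sample and were not used. Library depth cannot be read from TPM.

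Values were log2(TPM + 1), so changes of low genes are understated, and a gene entered a fit if 2 or more libraries had at least 1 TPM. Limma 3.58.1 in R 4.3.3 fitted group means with a trended prior in 4 separate fits, of 21303 genes (79 members, 12 residual degrees of freedom) for the time course, 17985 (80 and 9) for the cell lines, 14783 (78 and 2) for Tead2 and 19290 (78 and 12) for the lifetime experiment. Tests were two-sided, with Benjamini-Hochberg adjustment over all genes of a fit. Counts of members at an unadjusted p under 0.05, and of positive or negative members, are given without the share of all genes. They are descriptions, and members measured in the same libraries are not independent. Nothing says that replicates came from separate cultures, so p-values measure only the spread between 2 samples, which may be technical. Same-numbered libraries deviated together in the time course (66 correlations of 0.28 to 0.50) and the lifetime experiment (0.12 to 0.39), not in the others. Median-ratio scaling, other pseudocounts and filters, the replicate block and leaving out libraries were alternatives. Summing pseudogene rows was chosen after seeing the data. The members and gene lists were chosen with earlier results of these data known.

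Named genes are the up to 10 called members with the largest change in each direction, a set list of members, the highest and lowest members, up to 5 called genes per list and the hairpin targets. Rpl30, Rpl15, Rpl8, Rpl37, Rpl28, Rps9, Rpl4, Rps2-ps10, Rps2-ps13, Rps13-ps1 and members named without a call were chosen after their values were seen. Some genes that the rule names are not reported here. The fits were tested on simulated data. Python 3.11.15, pandas 2.3.3 and matplotlib 3.10.9 were used elsewhere.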

Additional observations from a re-analysis of the deposited data

Results flagged for a closer look

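The share of TPM held by the ribosomal protein genes changed sides between days in shYthdf3 cells. Relative to shLuc cells it was higher by 1.91 percentage points on day 1, and the differences on days 3, 5 and 7 were -0.30, -1.69 and -2.71 points. On day 1 both shYthdf3 libraries were above both shLuc libraries, and on the other 3 days both were below. The difference of the share between days was not tested, and gene by gene 0 members passed the test of the day 7 against day 1 effect.

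The same share with shYthdf2 differed between cell types: it was 1.19 points above shLuc in ES cells and 1.07 points above in iPS cells, and the difference was -0.55 points in MEFs, with no overlap of libraries in any of the 3. Rpl23a had the same order, with log2 changes of 0.19 in ES cells, 0.14 in iPS cells and -0.058 in MEFs. The own row of Rps2 had log2 changes of -0.060 in ES cells, 0.034 in iPS cells and -0.46 in MEFs. These differences between cell types were not tested. In shLuc MEFs the Rps2 own row had a mean of 83.4 TPM, beside 6368 TPM in its named pseudogene rows. With pseudogene rows summed, no member was called with shYthdf2 in MEFs. With shYthdf3 the share was 17.5 and 17.1% in iPS cells, against 16.4 and 16.3% in shLuc, and in ES cells and MEFs the libraries overlapped.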

How the results depend on the processing

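The replicate block, which pairs same-numbered libraries, moved the number of members called from 0 to 1 for day 7 against day 1, to 2 for shYthdf2 and 13 for shYthdf3 over the time course, to 6 between the knockdowns, from 4 to 42 and from 27 to 62 for actinomycin D at 4 h and 8 h, and from 0 to 1 and to 13 for shYthdf2 and shYthdf3 in DMSO. In the cell lines, where the numbers do not pair the libraries (correlations -0.13 to 0.07), it gave 0 for shYthdf2 in ES cells and 1 for shYthdf3 in iPS cells, and with Tead2 (-0.02) 0; it changed no other count by over 1.5 times. Median-ratio scaling gave 8 and 63 for actinomycin D, moving the median of all genes from -0.31 to -0.07 and from -0.63 to -0.18, and that of the members to 0.66 and 1.31. For the turn of the shYthdf3 effect it moved these medians to 0.00 and -0.83. It gave 0 for shYthdf2 in ES cells and 1 for shYthdf3 in iPS cells. No filter gave 1 and 15 for actinomycin D, 0 for shYthdf2 in ES cells and 1 for shYthdf3 in iPS cells. A pseudocount of 0.1 gave 1 for shYthdf3 in iPS cells and 2 for shYthdf2 in MEFs. Summed pseudogene rows gave 1 lower for shYthdf3 over the time course (2.53% of all genes) and 0 for shYthdf2 in MEFs, and reversed Rps2 (-0.46), Rpl35a (-0.15), Rps13 (0.69) and Rps12 (0.026) for ES over MEF, Rps2 (-0.44), Rpl35a (-0.38) and Rps13 (0.60) for iPS over MEF, and Rps13 (-0.089), Rpl34 (-0.41) and Rps26 (0.19) for iPS over ES.

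With 1 library left out, 46 to 53 members were called for ES over MEF, 42 to 50 for iPS over MEF, 14 to 24 for iPS over ES, 0 to 5 and 9 to 20 for actinomycin D at 4 h and 8 h, 0 to 2 for the turn of the shYthdf3 effect, 0 to 1 for Tead2, 0 to 0 for shYthdf2 in ES and shYthdf3 in iPS cells, 1 to 1 for shYthdf2 in MEFs, and 0 to 3 and 0 to 9 for shYthdf3 in ES cells and MEFs. A lone library was assumed to vary like the other groups, and the shares of all genes called are not given for these counts. The remaining counts stayed at 0. Of single-gene results under an alternative, 7711 kept their side of the threshold, 398 lost it, 58 gained it and 10 reversed. Promoter windows of 100 and 1000 bases gave 53 to 57 members with an ATAC peak and 18 with a TEAD2 peak. Other causes of these shifts were not tested.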

Other observations

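Rpl39l had 247 TPM in day 1 shYthdf3 replicate 1 and 17.3 TPM in replicate 2 of the same group, against 9.33 and 3.40 TPM in day 1 shLuc cells. In the 23 other time course libraries it had 1.19 to 18.9 TPM, and in the cell lines 93.8 to 229 TPM. That single library was above the highest cell line library.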
